A study of Mus musculus with 12 samples.

Results

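The collagen genes of sorted mouse keratinocytes are described here: every gene whose symbol on the array was Col, a number, a and a number, other than Col17a1 and Col7a1, the transmembrane and anchoring-fibril collagens of the epidermal junction. The rule found 37 of the 17853 genes measured, covered by 1369 exon probe sets with 5 to 66 per gene. Symbol updating brought 4 further collagen genes to light (Col6a4, Col6a5, Col6a6 and Col26a1), which are not members, stood at mean log2 levels of 1.67 to 2.68 and were called in no comparison. Col6a3 was not analysed here.

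Cells were sorted by flow cytometry from telogen (resting-phase) back skin epidermis of female Gata6-mTomato reporter mice on a C57BL6/CBA background, matched for an age that the labels do not give. All populations came from reporter mice, in which red fluorescence marks cells with an active Gata6 gene. Having or lacking the reporter means here having or lacking this fluorescence. CD34+ cells were Itga6+ and lacked the reporter; in mouse skin this combination is used to collect stem cells of the hair follicle bulge. Gata6+Itga6+ cells had the reporter and integrin alpha 6, the surface chain of basal keratinocytes, and Gata6+Itga6− cells had the reporter without that integrin. The remaining basal cells were Itga6+ and lacked both the reporter and CD34. Each population had 3 arrays, which the labels call biological replicates; the labels do not say whether each came from a separate mouse, so p-values measure the spread between these samples. The 37 genes were compared in all 6 pairs of populations.

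Levels are log2 of the deposited intensity plus 1, as the median over a gene's probe sets, and differ between genes with the brightness of their probes, so only populations are compared within a gene. The level of silent genes was set at a log2 level of 2.42, under which 95% of 1144 smell and vomeronasal receptor genes lay. The sort was visible in Cd34, at 7.92 to 7.99 in CD34+ cells and 1.48 to 2.11 elsewhere, and in Gata6, at 4.18 to 5.89 on the reporter-positive arrays and 2.38 to 3.17 on the others. It was less marked in Itga6 RNA, at a mean of 6.02 in Gata6+Itga6− cells and 6.76 to 7.67 in the Itga6+ populations. Itga6 was lower there than in Gata6+Itga6+ and remaining basal cells (limma adjusted p = 0.0268 and 0.00367). Between Gata6+Itga6− and CD34+ cells the limma adjusted p of Itga6 was 0.131. All 8 keratinocyte markers were over the silent level in every population. All 8 bulge markers, the sort gene Cd34 among them, were over it in CD34+ cells, and 4 were over it in each other population. The upper quartile of intensity ran from 12.1 to 17.6 over the arrays.

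Collagens are secreted proteins whose chains wind around each other into a helix. Fibrillar collagens build the fibres of the dermis and are made chiefly by fibroblasts, collagen IV forms the network of basement membranes, collagen VI forms beaded filaments close to cells, and fibril-associated collagens (FACITs) decorate fibre surfaces. The hair follicle bulge is wrapped in a basement membrane to which its own keratinocytes contribute, and CD34 is also carried by endothelial cells and some fibroblasts of the dermis.

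Collagen expression was raised in a small group of genes in CD34+ cells, while most members stayed near the level of silent genes. Col12a1, Col6a1, Col6a2, Col18a1, Col5a2 and Col1a2 were higher in CD34+ cells than in each of the 3 other populations. A gene was called at a limma adjusted p under 0.05 over all genes. Of the 37 members, 9 were called between CD34+ and remaining basal cells, 7 higher and 2 lower in CD34+ cells, where 5.0% of all genes were called (3.32% higher and 1.67% lower). Against Gata6+Itga6+ cells 6 were higher and none lower, beside 4.59% of all genes called (2.18% higher and 2.4% lower). Against Gata6+Itga6− cells 9 were higher and none lower, beside 7.96% called (4.74% higher and 3.22% lower). The 3 comparisons share the CD34+ arrays. The array names carry a letter A, C or D, whose meaning the labels do not give. For these 6 genes all 3 CD34+ arrays lay above the 9 others, so the direction within each letter's 4 arrays follows from that. The log2 differences there ran from 3.26 to 5.10 for Col12a1 and from 0.465 to 0.851 for Col1a2, the gene with the smallest. In bulk samples, fewer cells of a type and less RNA per cell cannot be told apart.

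Among the other 3 populations few members differed. In Gata6+Itga6− cells 4 members were lower than in remaining basal cells and none higher, beside 5.11% of all genes called (2.96% higher and 2.15% lower). No member was called between Gata6+Itga6+ and remaining basal cells, where limma called 1.36% of all genes (1.07% higher and 0.286% lower in the first) and 6 members had an unadjusted p under 0.05. None was called between the Gata6+ populations, where limma called 3.18% (1.17% higher and 2.01% lower without the integrin) and 5 members had an unadjusted p under 0.05. In all, 13 members (35.1%) were called in at least 1 comparison against 12.1% of all genes. Over the silent level in at least 1 population were 18 members, 48.65% against 52.1% of all genes. The median log2 difference of the members was 0.10, 0.06 and 0.17 in CD34+ cells against remaining basal, Gata6+Itga6+ and Gata6+Itga6− cells, beside 0.01, −0.02 and 0.02 over all genes.

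**Figure D1:**
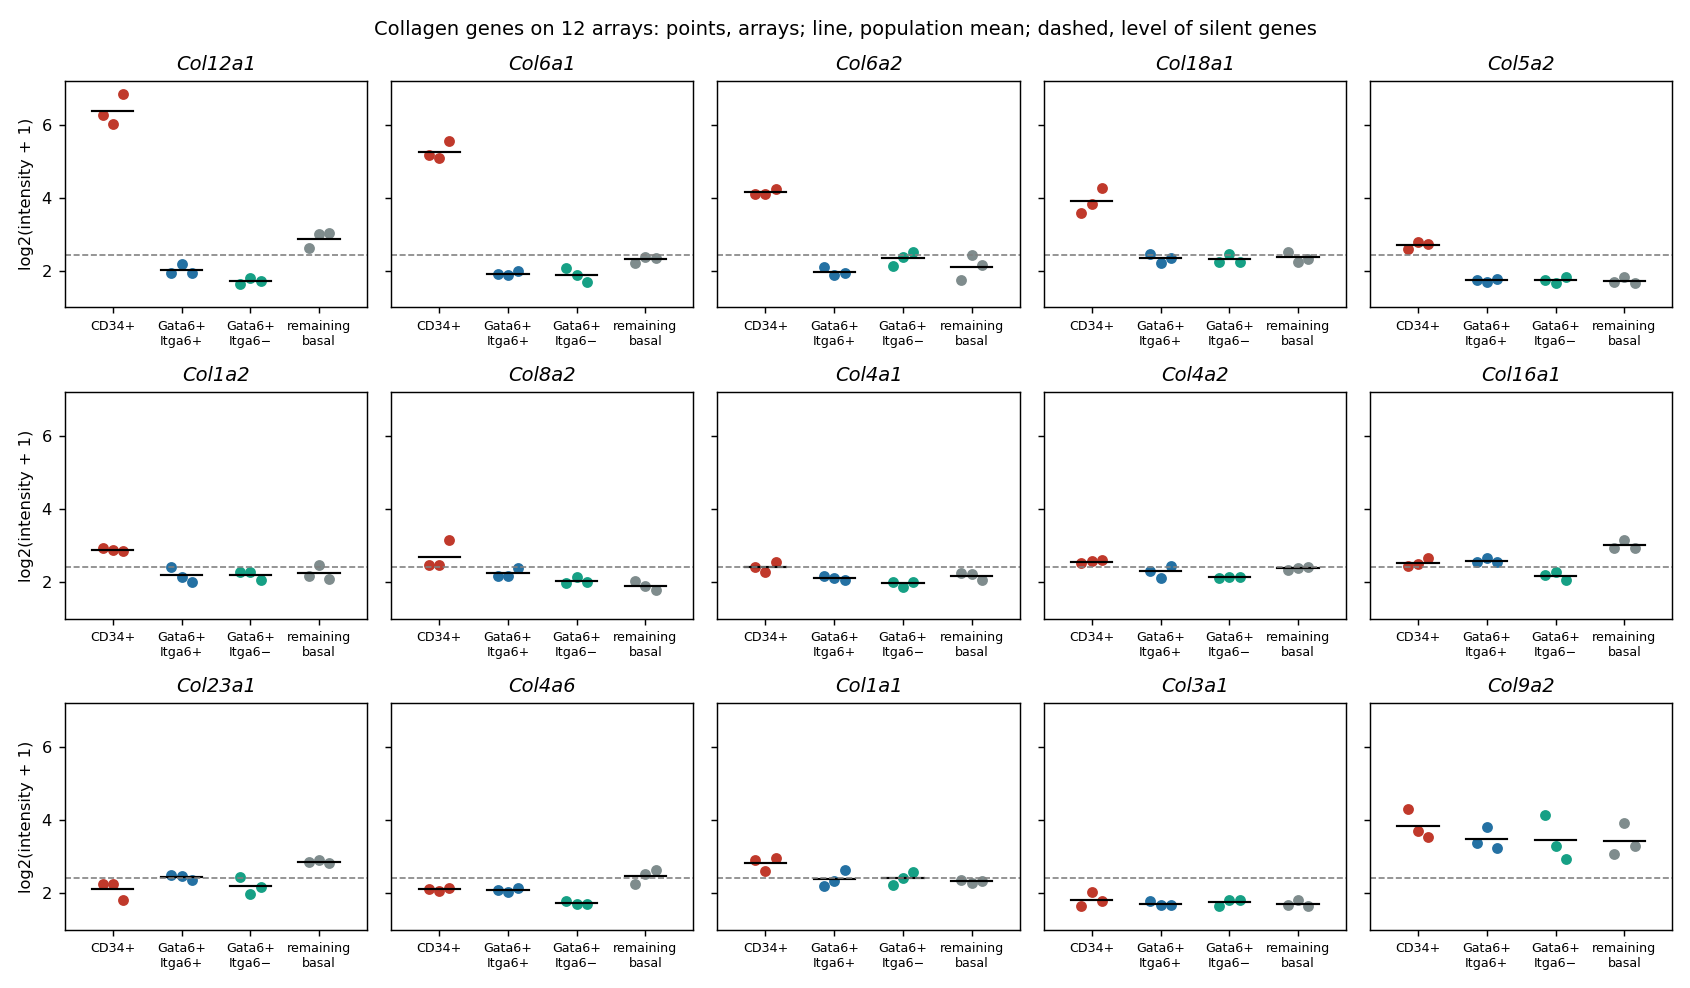
Log2 levels, log2(intensity + 1), of the 12 members with the smallest adjusted p and of Col1a1, Col3a1 and Col9a2 on every array; points are arrays, short lines the means of 3 arrays and the dashed line the level of silent genes, 2.42. Col12a1, Col6a1, Col6a2 and Col18a1 stand apart in CD34+ cells, whereas Col3a1 lies under the dashed line on all 12 arrays.

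Promoter sequence is given for the members that were higher in CD34+ cells in all 3 comparisons and have an entry in the RefSeq promoter table (GRCm38.p6), to place letters beside the genes that moved together. Of the 37 members 29 had an entry; Col12a1, Col14a1, Col1a1, Col22a1, Col2a1, Col4a3, Col5a2 and Col9a3 had none. Each window holds the 250 bases before a transcription start, 5′ to 3′ on the gene's strand. A further Col6a2 window overlaps the window printed and is left out. Col6a1 lies at chr10:76726045-76726294 (minus strand), Col6a2 at chr10:76623405-76623654 (minus), the start of Col18a1 farther upstream at chr10:77166531-77166780 (minus), its inner start at chr10:77113706-77113955 (minus) and Col1a2 at chr6:4505368-4505617 (plus). Capitals mark matches, on either strand, to the GC box GGGCGG, the box CCAAT, the TATA box TATAAA, the AP-1 site TGANTCA, the TCF/LEF core CTTTGA and the homeodomain core TAATTA.
Col6a1: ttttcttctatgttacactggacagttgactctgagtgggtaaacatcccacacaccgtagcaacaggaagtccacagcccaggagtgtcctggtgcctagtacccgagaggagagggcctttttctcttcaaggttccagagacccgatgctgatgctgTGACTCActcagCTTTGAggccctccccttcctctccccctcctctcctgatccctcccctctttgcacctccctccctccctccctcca
Col6a2: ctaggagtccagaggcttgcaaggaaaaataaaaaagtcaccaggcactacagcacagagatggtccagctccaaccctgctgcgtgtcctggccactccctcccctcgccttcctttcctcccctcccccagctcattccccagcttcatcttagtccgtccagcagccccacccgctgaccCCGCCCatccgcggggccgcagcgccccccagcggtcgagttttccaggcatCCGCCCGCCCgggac
Col18a1 upstream start: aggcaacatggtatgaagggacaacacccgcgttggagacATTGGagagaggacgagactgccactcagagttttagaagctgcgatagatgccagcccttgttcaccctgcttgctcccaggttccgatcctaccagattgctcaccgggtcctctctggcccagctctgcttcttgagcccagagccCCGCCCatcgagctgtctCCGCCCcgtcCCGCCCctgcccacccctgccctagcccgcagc
Col18a1 inner start: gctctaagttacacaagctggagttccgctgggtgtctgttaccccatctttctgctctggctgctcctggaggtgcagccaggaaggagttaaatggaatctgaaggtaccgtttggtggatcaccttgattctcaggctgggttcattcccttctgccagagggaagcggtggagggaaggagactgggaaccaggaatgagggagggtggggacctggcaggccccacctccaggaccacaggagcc
Col1a2: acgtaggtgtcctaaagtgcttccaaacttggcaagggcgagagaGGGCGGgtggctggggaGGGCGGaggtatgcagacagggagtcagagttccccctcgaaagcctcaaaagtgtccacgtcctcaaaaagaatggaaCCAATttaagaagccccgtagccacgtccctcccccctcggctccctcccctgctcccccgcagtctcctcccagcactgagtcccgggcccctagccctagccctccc

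No motif was in all 5 printed windows. Col6a1 held 1 AP-1 match and 1 TCF/LEF match, which 6.749% and 13.83% of the 32851 windows in the table also hold. Col6a2 held 3 GC box matches, of which the last pair overlap, the upstream start of Col18a1 held 3 and Col1a2 held 2, against 32.74% of all windows with at least 1. The upstream Col18a1 start and Col1a2 each held 1 CCAAT match, found in 33.85% of windows, and the inner Col18a1 start held none of the 6. TATAAA, in 12.37% of windows, and TAATTA, in 4.84%, were in none of these 5. A match is a string of letters in this window and says nothing of binding, and the arrays do not tell which start was used.

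Both member chains of collagen VI were higher in CD34+ cells, while Col6a4, Col6a5 and Col6a6, measured under other symbols, were called nowhere. Col6a1 and Col6a2 encode chains that assemble with a further chain before secretion. Col6a1 measured 5.17, 5.08 and 5.55 in CD34+ cells, 2.21, 2.39 and 2.34 in remaining basal cells, 1.92, 1.88 and 1.99 in the Gata6+Itga6+ population and 2.08, 1.89 and 1.71 in Gata6+Itga6− cells. Every CD34+ array lay more than 2 log2 units over every other array, and the other populations were all under the silent level. The log2 change was 2.95 against remaining basal cells (SE 0.14, limma adjusted p = 8.92e-07), 3.34 against Gata6+Itga6+ cells (4.44e-07) and 3.38 against Gata6+Itga6− cells (2.21e-07), at least 7.18-fold over the silent level.

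Col6a2 was high on the same arrays, at 4.11, 4.10 and 4.24 in CD34+ cells. It measured 1.74, 2.43 and 2.16 in remaining basal cells, 2.12, 1.89 and 1.95 in the Gata6+Itga6+ population and 2.13, 2.38 and 2.52 in Gata6+Itga6− cells. The CD34+ arrays were high and the 9 others lay around the silent level, with no difference called among them. The change was 2.04 (SE 0.17, limma adjusted p = 4.43e-05), 2.17 (3.79e-05) and 1.81 (6.89e-05) against remaining basal, Gata6+Itga6+ and Gata6+Itga6− cells, at least 3.31-fold. Both genes lie on chromosome 10.

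Col12a1, a FACIT that sits on collagen I fibres and in matrix under tension, had the highest changes of any member. It measured 6.27, 6.02 and 6.83 in CD34+ cells and 2.62, 3.00 and 3.04 in remaining basal cells. In Gata6+Itga6+ cells it stood at 1.95, 2.18 and 1.94 and in Gata6+Itga6− cells at 1.63, 1.81 and 1.74. The order ran from CD34+ through remaining basal to the Gata6+ populations, with no overlap at any step. The log2 change of CD34+ cells was 3.49 against remaining basal cells (11.2-fold, SE 0.20, limma adjusted p = 3.3e-06), 4.35 against Gata6+Itga6+ cells (7.14e-07) and 4.65 against Gata6+Itga6− cells (2.87e-07), the last at least 15.4-fold. Col12a1 fell by 1.16 from remaining basal to Gata6+Itga6− cells (limma adjusted p = 0.00598), while the step to Gata6+Itga6+ cells was not called (−0.87, 0.0742) nor that between the Gata6+ populations (−0.30, 0.61).

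Col18a1, whose protein is a heparan sulphate proteoglycan of basement membranes and the source of endostatin, was also higher in CD34+ cells. It measured 3.60, 3.84 and 4.28 there, 2.53, 2.24 and 2.34 in remaining basal cells, 2.45, 2.23 and 2.36 in the Gata6+Itga6+ population and 2.25, 2.48 and 2.23 in Gata6+Itga6− cells. No CD34+ array overlapped another population, and the 3 other populations overlapped each other. The change was 1.54 (SE 0.17, limma adjusted p = 0.00033), 1.56 (0.000371) and 1.59 (0.000166) against remaining basal, Gata6+Itga6+ and Gata6+Itga6− cells, at least 2.79-fold. Col15a1, the other multiplexin, was under the silent level in all populations (means of 1.83 to 1.90) and was not called.

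The collagens that dermal fibroblasts make in bulk had gene medians under or little over the silent level. Single probe sets were brighter in all populations. The brightest in CD34+ cells stood at 7.21 for Col1a1 (6.92 to 7.21 elsewhere) and at 7.92 for Col3a1 (7.66 to 7.76). Col1a1 measured 2.91, 2.61 and 2.96 in CD34+ cells, 2.35, 2.28 and 2.33 in remaining basal cells, 2.21, 2.32 and 2.63 in the Gata6+Itga6+ population and 2.23, 2.42 and 2.57 in Gata6+Itga6− cells. One Gata6+Itga6+ array overlapped the CD34+ range, and no comparison was called; the change in CD34+ cells was 0.51 against remaining basal (SE 0.14, limma adjusted p = 0.076), 0.44 (0.138) and 0.42 (0.118). Col3a1 measured 1.65, 2.03 and 1.78 in CD34+ cells and 1.65 to 1.82 on the other 9 arrays, under the silent level throughout and with overlapping populations (limma adjusted p of 0.777 to 0.887 for CD34+ cells).

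Col1a2, which encodes the second chain of collagen I, was called in all 3 comparisons, with gene medians little over the silent level in CD34+ cells. It measured 2.93, 2.88 and 2.86 in CD34+ cells, 2.17, 2.47 and 2.09 in remaining basal cells, 2.40, 2.15 and 2.01 in the Gata6+Itga6+ population and 2.28, 2.26 and 2.06 in Gata6+Itga6− cells. The CD34+ arrays did not overlap the others, which stood around the silent level. The change was 0.65 (SE 0.13, limma adjusted p = 0.0179), 0.70 (0.0128) and 0.69 (0.00869), at least 1.38-fold. Against remaining basal cells the call was lost without CD34+ replicate 1, 2 or 3 (limma adjusted p = 0.0561, 0.0509 and 0.0523) or remaining basal replicate 1 or 3 (0.0658 and 0.0588), and against Gata6+Itga6+ cells without Gata6+Itga6+ replicate 3 (0.053).

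Col5a2, a chain of the collagen V that starts and thins dermal fibres, measured 2.60, 2.80 and 2.74 in CD34+ cells. It stood at 1.69, 1.83 and 1.68 in remaining basal cells, 1.76, 1.70 and 1.78 in the Gata6+Itga6+ population and 1.76, 1.67 and 1.84 in Gata6+Itga6− cells. CD34+ cells were over the silent level and the 9 other arrays under it. The change was 0.98 (SE 0.09, limma adjusted p = 0.000113), 0.97 (0.000153) and 0.96 (8.01e-05) and at least 1.22-fold against the silent level. Its partner Col5a1 had all CD34+ arrays above the others but was not called (means of 2.36 against 2.03 to 2.09; limma adjusted p of 0.119 to 0.285). In all, 2 of 11 fibrillar collagens (18.2%) were called in at least 1 comparison, beside 12.1% of all genes, and the means of the 9 others ran from 1.55 to 2.83 over all populations.

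In gene medians, collagen IV differed mostly between CD34+ and Gata6+Itga6− cells, in small steps near the silent level. Some of its single probe sets had wider gaps, given below with the other probe sets. Col4a1 and Col4a2 encode the pair of chains found in most basement membranes. Col4a1 measured 2.41, 2.28 and 2.54 in CD34+ cells, 2.24, 2.23 and 2.06 in remaining basal cells, 2.16, 2.12 and 2.05 in the Gata6+Itga6+ population and 2.01, 1.88 and 2.00 in Gata6+Itga6− cells. Its CD34+ arrays lay above the others, and it was called only against Gata6+Itga6− cells (a change of 0.45, SE 0.10, limma adjusted p = 0.0185). The call was lost without CD34+ replicate 1 or 3 (0.053 and 0.0737) or Gata6+Itga6− replicate 2 (0.0702).

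Col4a2 measured 2.51, 2.57 and 2.59 in CD34+ cells, 2.34, 2.38 and 2.41 in remaining basal cells, 2.31, 2.12 and 2.45 in the Gata6+Itga6+ population and 2.12, 2.14 and 2.15 in Gata6+Itga6− cells. Like its partner, it had no overlap and was called only against Gata6+Itga6− cells (0.42, SE 0.09, limma adjusted p = 0.0198, at least 1.09-fold). The call was lost without CD34+ replicate 2 or 3 (0.0579 and 0.0705) or without any 1 of the Gata6+Itga6− replicates 1, 2 and 3 (0.0664, 0.057 and 0.0588). Col4a4, from another collagen IV network, passed the threshold by the narrowest margin (CD34+ 2.37 against 1.90 in Gata6+Itga6− cells, limma adjusted p = 0.04998) and lost it without any 1 of 11 arrays, CD34+ replicate 2 being the exception, at 0.0504 to 0.149.

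Col4a6, a chain of epithelial basement membranes, was highest in remaining basal cells, at 2.25, 2.52 and 2.63. It measured 2.12, 2.05 and 2.15 in CD34+ cells, 2.08, 2.03 and 2.15 in the Gata6+Itga6+ population and 1.79, 1.70 and 1.71 in Gata6+Itga6− cells. Gata6+Itga6− cells lay under every other array, and the fall from remaining basal cells was 0.73 (a log2 change of −0.73, SE 0.11, limma adjusted p = 0.0022). CD34+ cells were lower than remaining basal cells by a log2 change of −0.36 that was not called (0.095). Col4a3 and Col4a5 were called nowhere, with means of 1.81 to 2.22.

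Col16a1 and Col23a1 ran against the group above. Col16a1, a FACIT found near basement membranes, measured 2.95, 3.14 and 2.92 in remaining basal cells, 2.56, 2.66 and 2.55 in Gata6+Itga6+ cells, 2.44, 2.49 and 2.67 in CD34+ cells and 2.21, 2.27 and 2.06 in Gata6+Itga6− cells. Remaining basal cells did not overlap another population and Gata6+Itga6− cells were lowest. The change from remaining basal cells was −0.83 in Gata6+Itga6− cells (SE 0.10, limma adjusted p = 0.000874) and −0.47 in CD34+ cells (0.0258, 1.39-fold lower). The call in CD34+ cells was lost without CD34+ replicate 1 or 2 (0.0854 and 0.0828) or remaining basal replicate 1 or 2 (0.0543 and 0.0997).

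Col23a1, a transmembrane collagen, measured 2.85, 2.90 and 2.83 in remaining basal cells, 2.50, 2.46 and 2.37 in Gata6+Itga6+ cells, 2.44, 1.97 and 2.18 in the Gata6+Itga6− population and 2.26, 2.24 and 1.82 in CD34+ cells. The remaining basal arrays were the highest, and the means of CD34+ and Gata6+Itga6− cells were under the silent level. The change was −0.76 in CD34+ cells (SE 0.15, limma adjusted p = 0.0126) and −0.67 in Gata6+Itga6− cells (0.024), against remaining basal cells. The second call was lost without Gata6+Itga6− replicate 2 or 3 (0.0908 and 0.0776) or without any 1 of remaining basal replicates 1, 2 and 3 (0.0675, 0.0831 and 0.0569).

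Col8a2, of the short-chain collagen VIII that forms hexagonal sheets, measured 2.46, 2.46 and 3.14 in CD34+ cells, 2.02, 1.88 and 1.77 in remaining basal cells, 2.16, 2.17 and 2.38 in the Gata6+Itga6+ population and 1.97, 2.14 and 2.00 in Gata6+Itga6− cells. All CD34+ arrays were above the others, with replicate 3 well above its fellows. It was called against remaining basal cells only (log2 change 0.80, SE 0.17, limma adjusted p = 0.026), not without remaining basal replicate 2 or 3 (0.0827 and 0.0765), and just missed the threshold against Gata6+Itga6− cells (0.0504).

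**Figure D2:**
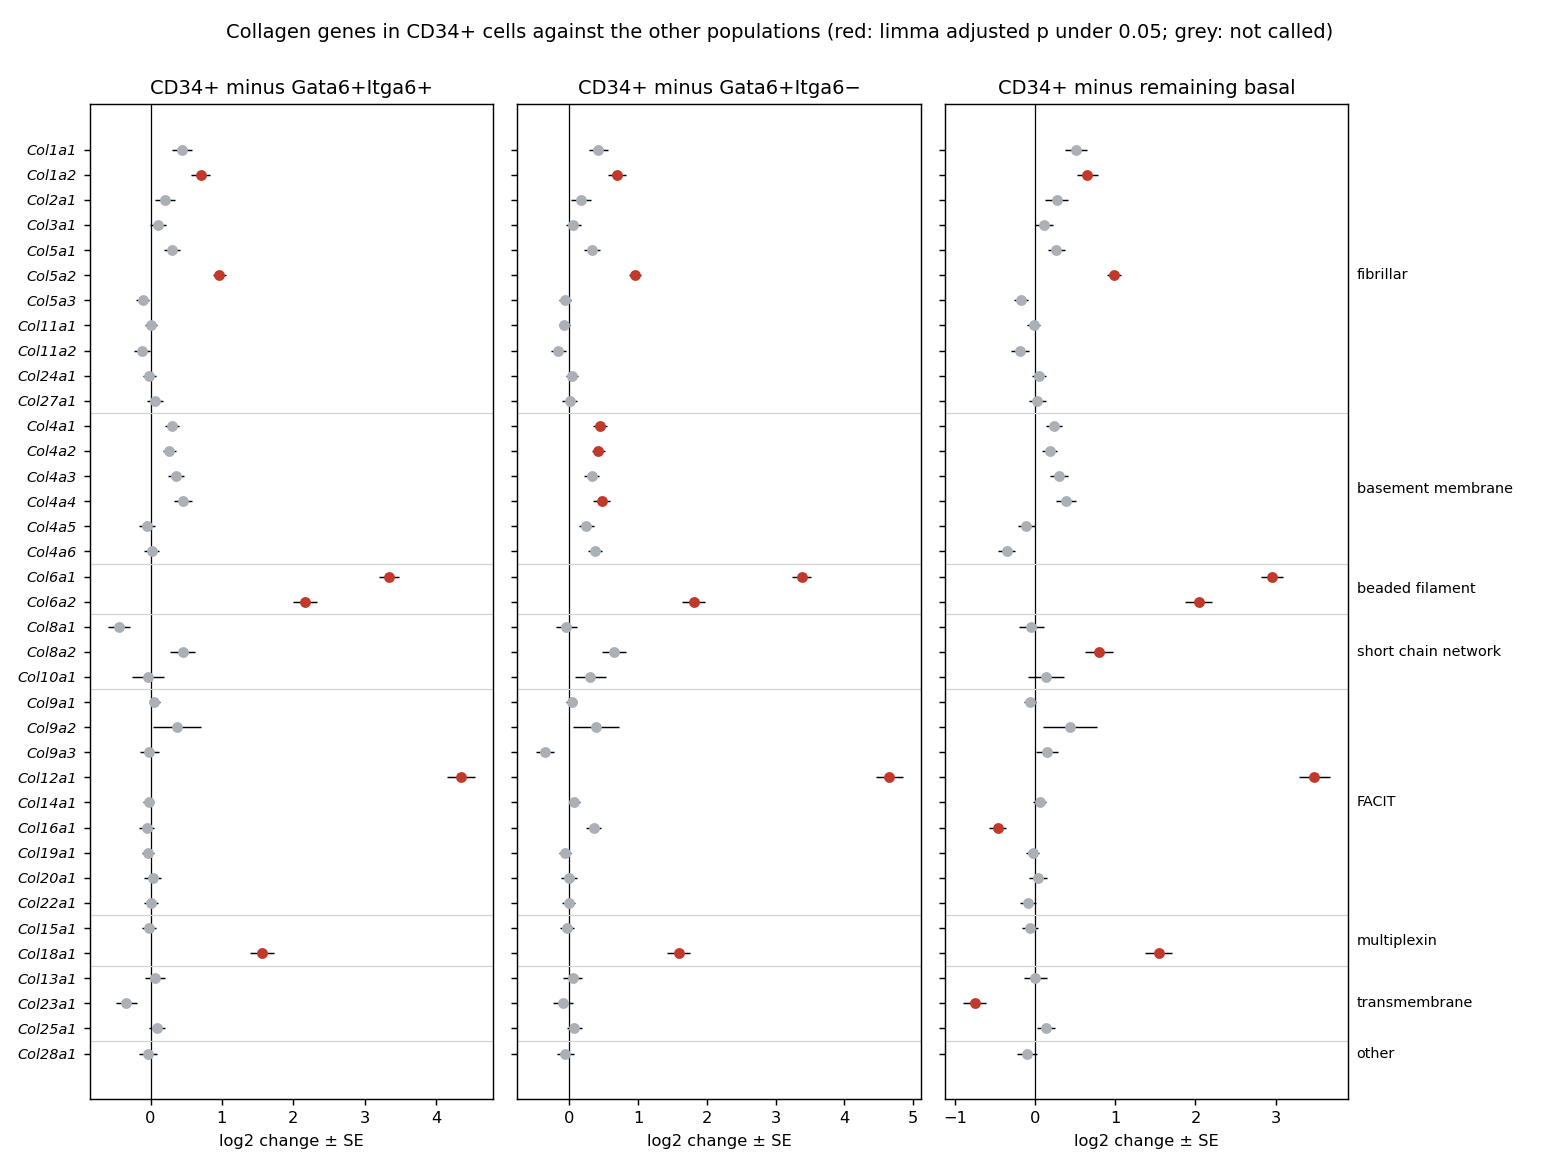
Log2 change of each of the 37 members in CD34+ cells against each other population, grouped by structural class; points are limma estimates from 3 arrays a population, bars are SE, red marks an adjusted p under 0.05. Collagens VI, XII, XVIII, I and V hold red points against every other population, and collagen IV only against Gata6+Itga6− cells. Most points are grey, with small changes.

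The remaining members showed no called change. In all 24 members were called nowhere, and 17 of those were under the silent level in every population. The 7 others were Col1a1, Col2a1, Col5a3, Col9a2, Col9a3, Col11a2 and Col27a1. Col9a2, a FACIT best known from cartilage, was over the silent level on all 12 arrays, with means of 3.85 in CD34+ and 3.42 to 3.48 in the other populations. Its arrays overlapped in every pair, from 2.95 to 4.31, and it was not called (limma adjusted p of 0.659 to 0.738 for CD34+ cells). For comparison, the junction collagen Col17a1 stood at 6.99 in CD34+, 6.50 in remaining basal, 6.09 with the reporter and integrin and 4.20 with the reporter alone.

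The share of probe sets that set CD34+ cells apart differed between members. Gene levels are medians of these same probe sets, so the shares describe the calls and are no separate support for them. Each exon probe set was asked whether all 3 CD34+ arrays lay above the 9 others, which held for 2.57% of all probe sets and, for gene medians, for 3.7% of all genes and for 11 of 37 members (29.7%). For Col12a1 it held for 58 of 66 probe sets, for Col6a1 for 19 of 26, for Col6a2 for 10 of 19 and for Col18a1 for 14 of 36. The shares were smaller for Col5a2 (13 of 48), Col8a2 (4 of 20) and Col1a2 (8 of 43). It held for 3 of 39 probe sets of Col1a1 and for none of the 46 of Col3a1. In collagen IV it held for 6 of 51 probe sets of Col4a1, 4 of 48 of Col4a2, 6 of 54 of Col4a3 and 4 of 43 of Col4a4. It held for none of Col4a5 or Col4a6. Probe sets of 1 gene share RNA and arrays and are not replicates.

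Some weakly changed members held single probe sets with a wide gap. The probe set of Col1a2 with the widest gap stood at a mean of 7.44 in CD34+ cells against 1.83 to 2.07 elsewhere, and that of Col8a2 at 7.07 against 1.31 to 1.74. That of Col1a1 stood at 3.58 against 2.34 to 2.39. These probe sets were chosen for their gap, so the values are a description.

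The calls were recomputed with other summaries of the probe sets. When levels were averaged rather than taken as medians, 27 of 28 calls remained and none turned direction; the call lost was that of Col23a1 in Gata6+Itga6− cells (−0.37, limma adjusted p = 0.0588), and its change in CD34+ cells was −0.43. With only the brightest probe set of each gene (the highest mean over all arrays), calls remained for Col6a1 in all 3 comparisons of CD34+ cells (log2 2.29, 2.59 and 3.15 against remaining basal, Gata6+Itga6+ and Gata6+Itga6− cells), for Col8a2 against remaining basal cells (6.70) and for Col12a1 and Col6a2 against Gata6+Itga6− cells (0.86 and 0.90). The other 22 of 28 calls were lost, and 6 of these turned direction, among them Col5a2 against remaining basal (−0.26) and Gata6+Itga6+ cells (−0.13). A pseudocount of 16 in place of 1, which shrinks the log2 change of dim genes by construction, kept 25 of 28 calls. Against remaining basal cells it lowered the log2 change of Col12a1 to 2.13, of Col6a1 to 1.43, of Col6a2 to 0.76, of Col18a1 to 0.58, of Col5a2 to 0.24 and of Col1a2 to 0.18. It ended the calls of Col12a1 in Gata6+Itga6− against remaining basal cells (limma adjusted p = 0.425), of Col8a2 (0.0757) and of Col4a4 (0.0765).

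**Figure D3:**
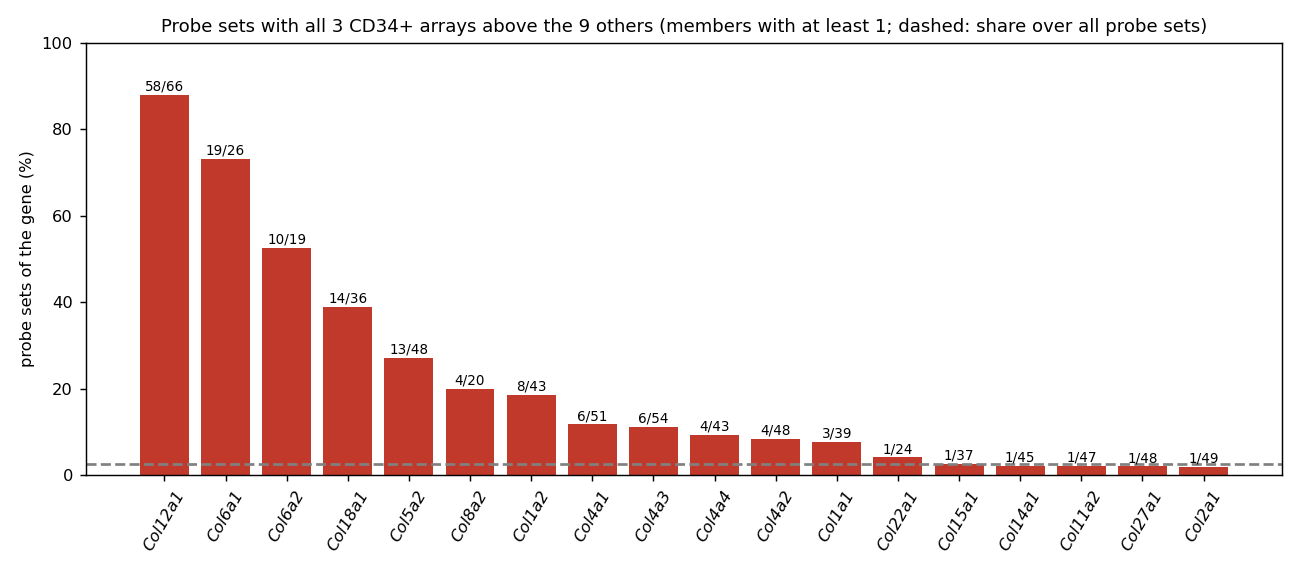
Share of each member's probe sets, in percent, on which all 3 CD34+ arrays lay above the 9 others, with the counts over the bars; the dashed line is the share over all probe sets, 2.57%. Col12a1 (58 of 66) and Col6a1 (19 of 26) lead, and the 19 members with no such probe set, Col3a1 among them, are left out.

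Markers of other cell types were measured beside these genes. Of 16 non-collagen dermal fibroblast markers, 14 were under the silent level in every population. Pdgfra, the receptor that defines dermal fibroblasts, measured 1.48 to 1.71 in CD34+ cells and 1.44 to 1.64 elsewhere. The proteoglycan genes Dcn and Lum measured 1.41 to 1.83 and 1.29 to 1.43 in CD34+ cells, against 1.53 to 1.82 and 1.18 to 1.44 elsewhere. These markers overlapped between populations and none of the 3 was called. The median log2 change of the 16 in CD34+ cells was 0.02, −0.02 and −0.03 against remaining basal, Gata6+Itga6+ and Gata6+Itga6− cells.

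The fibroblast exceptions were Mfap5, at means of 2.31 to 2.48 and not called, and Efemp2, an elastic-fibre protein. Efemp2 measured 2.81, 3.73 and 3.12 in CD34+ cells and 1.78 to 2.29 on the other arrays, without overlap (log2 change 1.16 to 1.27, limma adjusted p = 0.00674, 0.0127 and 0.00482 against remaining basal, Gata6+Itga6+ and Gata6+Itga6− cells). Without Gata6+Itga6+ replicate 1 its second call was lost (0.0509), and with its brightest probe set all 3 were lost. The summed intensity of the list was 41.4 to 49.6 on CD34+ arrays and 37.0 to 40.9 on the others. This sum includes Efemp2, the only 1 of the 16 markers called in any comparison, beside 12.1% of all genes. Its separation is therefore not a measure of the list as a whole. Whether Efemp2 here comes from keratinocytes or from other cells was not tested.

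The other lists gave single genes. Of 10 endothelial markers none was called, beside 12.1% of all genes called in at least 1 comparison. In a list this short that count does not set the list apart. Only Egfl7 was over the silent level, and the summed intensity of the 10 was 25.0 to 28.9 on CD34+ arrays and 23.9 to 29.8 on the others. Crabp1, from the list of 8 dermal papilla and sheath genes, measured 4.05, 4.17 and 3.49 in CD34+ cells and 1.52 to 1.94 elsewhere (limma adjusted p of 2.78e-05 to 3.56e-05), while Rspo3, of the same list, was lower in CD34+ than in remaining basal cells (2.14 against 3.20, 0.0374), a call lost in 15 of 22 alternatives, among them without any 1 CD34+ array (0.0754 to 0.116 for these) and with either block. With its brightest probe set Crabp1 was not called and turned direction in all 3 comparisons (−0.25 to −0.49). Besides Crabp1 and Rspo3, only Alpl of this list was over the silent level in any population, and no other gene of it was called. The median log2 change of the 8 in CD34+ cells was −0.04, 0.05 and 0.11 against remaining basal, Gata6+Itga6+ and Gata6+Itga6− cells.

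Cspg4, a proteoglycan listed for pericytes, measured 4.15, 5.05 and 4.81 in CD34+ cells, 3.15 to 3.75 in the Gata6+Itga6+ population and 2.17 to 2.91 in the others, and was higher in CD34+ cells in all 3 comparisons (limma adjusted p of 9.36e-05 to 0.009). Notch3, of the same list, was lower in CD34+ than in Gata6+Itga6− cells (2.77 against 3.88, limma adjusted p = 0.00206). Of the 6 other genes of that list besides Notch3, none was over the silent level. Of 6 melanocyte genes only Mlana was called, higher in CD34+ than in remaining basal cells (3.01 against 2.29, limma adjusted p = 0.0274). This call was lost in 9 of 22 alternatives. Among them were fits without CD34+ replicate 1 or 2 or remaining basal replicate 1 or 2 (0.0823 to 0.099). The mean of probe sets (log2 0.28, limma adjusted p = 0.234) and the brightest probe set (0.16, 0.869) lost it too. Besides Mlana only Slc45a2 was over the silent level. The median log2 change of the 6 in CD34+ cells was −0.02, 0.05 and 0.01 against remaining basal, Gata6+Itga6+ and Gata6+Itga6− cells. Of 6 Schwann cell genes none was higher in CD34+ cells, beside 2.18% to 4.74% of all genes in the 3 comparisons. Erbb3, of this list, was lower in CD34+ than in Gata6+Itga6+ and Gata6+Itga6− cells (2.88 against 4.89 and 5.85). Its limma adjusted p was 0.0133 and 0.000654, beside 2.4% and 3.22% of all genes called lower. Of 7 immune genes limma called none, beside 12.1% of all genes called in at least 1 comparison. Lists this short can hold none at such shares. The summed intensity of the immune list was 15.5 to 17.5 in CD34+ cells and 16.9 to 38.0 elsewhere. The part of any of these cells in the collagen values was not tested beyond these levels.

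**Figure D4:**
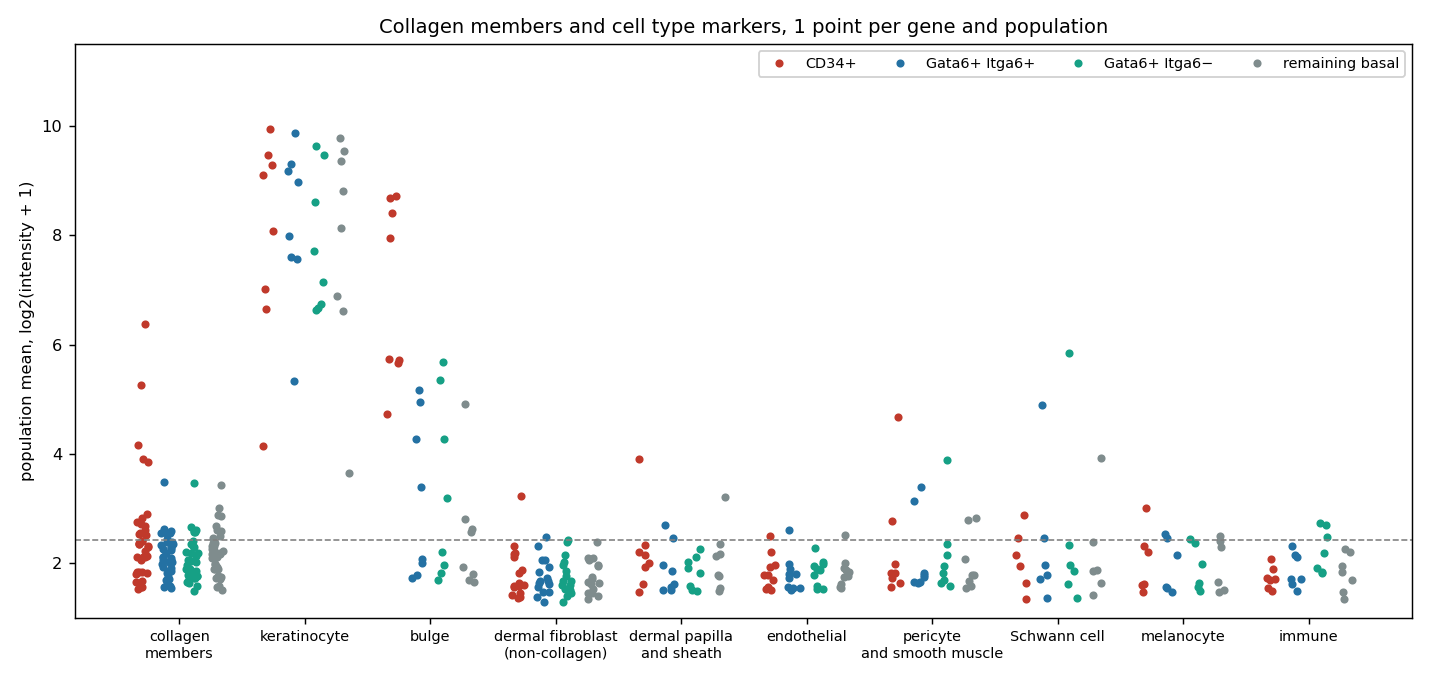
Population means, log2(intensity + 1), of the 37 collagen members and of 9 marker lists, 1 point per gene and population (mean of 3 arrays), with the level of silent genes, 2.42, dashed. Fibroblast and endothelial points crowd under the dashed line in every population except for Efemp2 in CD34+ cells and a few points close to the line, whereas keratinocyte points lie over it.

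Genes that make and process collagen were measured from lists chosen by function. Among 20 genes of collagen synthesis and secretion, CD34+ cells were higher in 2 against remaining basal cells, 1 against Gata6+Itga6+ cells and 5 against Gata6+Itga6− cells, with none lower, beside 3.32%, 2.18% and 4.74% of all genes called higher. The last 5 include P3h1, a prolyl 3-hydroxylase, which was under the silent level in every population (1.94 against 1.49). P3h4, a partner of lysyl hydroxylase in the endoplasmic reticulum, measured 2.86, 3.53 and 3.84 in CD34+ cells and 1.99 to 2.72 elsewhere, without overlap (log2 change 0.97, 1.04 and 1.23 against remaining basal, Gata6+Itga6+ and Gata6+Itga6− cells; limma adjusted p = 0.0438, 0.0342 and 0.00895). The first of these calls was lost without any 1 array other than CD34+ replicate 1 and remaining basal replicate 3 (0.0524 to 0.142). The second was lost without CD34+ replicate 2 or 3, any 1 Gata6+Itga6+ replicate, Gata6+Itga6− replicate 1 or remaining basal replicate 2 (0.0521 to 0.115).

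Plod3, a lysyl hydroxylase that also glycosylates collagen, measured 3.60, 3.90 and 3.99 in CD34+ cells and 2.57 to 3.18 in remaining basal cells (0.97, limma adjusted p = 0.0108), and 2.01 to 2.30 in Gata6+Itga6− cells (1.67, 0.000204). It was not called against Gata6+Itga6+ cells, where it measured 2.99 to 3.47. P3h2, a prolyl 3-hydroxylase, stood at 6.93 in CD34+ cells and 4.37 in Gata6+Itga6− cells (0.00167). Plod1, another lysyl hydroxylase, stood at 2.73 against 1.82 (0.012; not called without CD34+ replicate 3, 0.051, or Gata6+Itga6− replicate 1, 0.05).

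Of 11 genes for procollagen processing and crosslinking, Pcolce2 and Tll1 were higher in CD34+ cells than in each other population. In these 3 comparisons 2.18% to 4.74% of all genes were called higher. Pcolce2, which enhances removal of the C-propeptide of fibrillar procollagens, measured 6.23, 6.44 and 7.42 in CD34+ cells and 1.44 to 1.59 on the other 9 arrays, at least 19.3-fold over the silent level (log2 5.15 to 5.22, limma adjusted p of 4.83e-07 to 8.92e-07). Tll1, a proteinase that removes this propeptide, measured 3.34, 3.92 and 3.83 against 1.44 to 1.61 (log2 2.17 to 2.20, 4.39e-06 to 8.74e-06). Neither gene had any overlap, and both kept all 3 calls in the 22 alternatives, the lowest log2 change being 2.74 for Pcolce2 and 0.65 for Tll1, at a pseudocount of 16. Adamts14, an N-propeptidase, was lower in CD34+ than in remaining basal cells (1.76 against 2.60, limma adjusted p = 0.00758).

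Among collagen receptors every called difference lay in an integrin chain, in a list made up largely of such chains. Of 9, none was called between CD34+ and remaining basal cells, 1 was higher in CD34+ than in Gata6+Itga6+ cells, and 3 were higher and 1 lower than in Gata6+Itga6− cells, beside 5.0%, 2.18%, 4.74% and 3.22% of all genes called in these ways. Of the last 4, the integrin alpha chains Itga1 (1.83 against 1.49) and Itga11 (1.97 against 2.30) were under the silent level in every population. Itga2, the alpha chain of the keratinocyte collagen receptor, measured 5.17, 4.57 and 4.74 in CD34+ cells, 3.91, 4.04 and 4.42 in remaining basal cells, 2.39, 2.62 and 3.00 in the Gata6+Itga6+ population and 1.56, 1.57 and 1.59 in Gata6+Itga6− cells. The populations followed in that order without overlap, although the first step was not called. Its beta partner Itgb1 stood at 7.45, 6.71 and 6.96 in CD34+, remaining basal and Gata6+Itga6+ cells and at 3.41 in Gata6+Itga6− cells (limma adjusted p = 7.79e-05 between CD34+ and Gata6+Itga6− cells). Of 10 collagen-cleaving proteases none was called between CD34+ and remaining basal cells, beside 5.0% of all genes. Ctsl and Mmp14 were higher in CD34+ than in Gata6+Itga6− cells (6.72 against 3.54 and 4.12 against 2.67, limma adjusted p = 0.000175 and 0.00823), beside 4.74% of all genes called higher.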

How the data were processed

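Levels were measured on 12 mouse exon arrays, 3 for each of 4 sorted populations. The deposited values are intensities that the authors made with RMA in Affymetrix Power Tools on build mm9, as named in the submitters' processing notes without versions. Per the labels' protocols, RNA was column-extracted, amplified and biotin-labelled as sense cDNA. The scale of the intensities is not stated and was read as linear, since the medians of the arrays ran from 3.97 to 4.57 and their highest values from 2172 to 2953; every log2 value rests on this. RMA sets arrays to a common scale, which reduces shifts shared by most genes. Precision is limited by the number of arrays.

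Of 235932 probe sets, the 221205 with 1 symbol were used, 1684 had several symbols and 13043 none. A gene's level was the median over its probe sets of log2(intensity + 1); the added 1 makes changes of dim genes smaller. Members were picked by the symbol in the probe annotation. All 12 arrays and 17853 genes entered a linear model of 4 population means in limma 3.58.1 in R 4.3.3 (lmFit and eBayes, prior degrees of freedom 2.12, residual 8), with Benjamini-Hochberg adjustment over all genes and calls at an adjusted p under 0.05. The procedure was tested on simulated data. A fold is 2 to the power of the log2 change, and where the lower mean lay under the silent level, 2.42, that level took its place and the fold is given as at least. An exact permutation test of 3 against 3 arrays cannot go below 0.1 and was not used.

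Members and lists were chosen with earlier results of these data known. Every array is given for the 12 called members with the smallest adjusted p and for Col1a1, Col1a2 and Col3a1; of each related or marker list, at most 4 called genes are named, with markers of the highest level. Col4a4, Col5a1, Col9a2, Col17a1, P3h1, Pdgfra, Dcn, Lum and the chromosomal neighbours were chosen after their values were seen. Some genes of the lists, Fkbp10, Lox and Trdc among them, were not analysed here. Alternatives changed the pseudocount, the gene summary, the normalization, the filter on dim genes, the arrays fitted, blocks, array brightness as a covariate and the variance model, and left out each array in turn. Promoter windows are from RefSeq GRCm38.p6, another build than that of the arrays, and no array value was read by position.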

Additional observations from a re-analysis of the deposited data

How the results depend on the processing

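The 28 calls of members were recomputed under 10 other settings and without each of the 12 arrays, except that without dim genes only 26 could be tested, Col4a1 and Col4a4 being too dim. Col6a1 in the 3 comparisons of CD34+ cells and 2 further calls, Col12a1 and Col6a2 against Gata6+Itga6− cells, held in all of them, and the others were lost in at least 1. With the brightest probe set of each gene, members called numbered 2, 2 and 4 for CD34+ against remaining basal, Gata6+Itga6+ and Gata6+Itga6− cells, and limma called 0 for Gata6+Itga6− against remaining basal cells, where 5 had an unadjusted p under 0.05. Under that setting 6 log2 changes turned direction: Col5a2 in CD34+ cells against remaining basal (−0.26) and Gata6+Itga6+ cells (−0.13), Col4a1 (−0.093), Col4a2 (−0.31) and Col4a4 (−0.14) in CD34+ against Gata6+Itga6− cells, and Col23a1 in Gata6+Itga6− against remaining basal cells (0.023). The mean of probe sets gave 10 calls for CD34+ against Gata6+Itga6+ cells and 1 call each for Gata6+Itga6+ against remaining basal cells and between the Gata6+ populations; over all genes it called 1513 in place of 892 for CD34+ against remaining basal cells. The other comparisons then had 1300, 2159, 454, 1403 and 995 genes called in place of 819, 1421, 242, 913 and 567 (CD34+ against Gata6+Itga6+ and Gata6+Itga6− cells, each Gata6+ population against remaining basal cells in that order, and between these populations). Other counts over all genes that moved by more than 1.5 times were 503 for CD34+ against Gata6+Itga6+ cells with the brightest probe set, 571 and 110 for CD34+ and Gata6+Itga6+ against remaining basal cells with only 2 populations, 151 (pseudocount of 16) and 127 (array brightness as a covariate) for Gata6+Itga6+ against remaining basal cells, and 359 between the Gata6+ populations with that covariate. Leaving out 1 array did so only in these last comparisons: 131 to 146 genes without Gata6+Itga6+ replicate 1 or 3 or remaining basal replicate 1 or 2, and 285 to 373 without Gata6+Itga6+ replicate 2 or 3 or Gata6+Itga6− replicate 1 or 3. With only the 2 populations compared in the fit, fewer arrays estimated the spread and CD34+ against remaining basal cells gave 5. Quantile normalization gave 2 for Gata6+Itga6+ against remaining basal cells. At a pseudocount of 16 all 28 log2 changes moved by more than 1.5 times, by its construction. The cause of the other shifts was not tested. Without 1 array the counts ran from 7 to 9, 5 to 6 and 6 to 9 for CD34+ against remaining basal, Gata6+Itga6+ and Gata6+Itga6− cells, 0 to 1 for Gata6+Itga6+ against remaining basal (1 without CD34+ replicate 3), 3 to 4 for Gata6+Itga6− against remaining basal and 0 to 0 between the Gata6+ populations.

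Arrays with the same replicate number did not deviate together in every pair (correlations of −0.144 to 0.279), so the numbers were not taken to pair them. With the replicate number as a block, the only call of a member lost was that of Col4a4 (limma adjusted p = 0.0805), and the counts of members called kept within 1.5 times; with the array letter as a block Col4a4 (0.0801) and Col16a1 in CD34+ against remaining basal cells (0.0504) were lost. The silent level limits what could be seen: 19 members never rose over it. The 18 genes named outside the collagens for a called difference, other than P3h1, Itga1, Itga11, Notch3, Erbb3 and the sort gene Itga6, were put through the same settings. This was done after the data were seen. Direction turned only with the brightest probe set, for Crabp1, Efemp2 (−0.24) and Pcbp3.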

Other observations

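Some raised collagen genes are neighbours in the genome. In the RefSeq gene order of GRCm38.p6, Col6a2, Col6a1, Pcbp3, Slc19a1 and Col18a1 follow each other on chromosome 10. Pcbp3, an RNA-binding protein gene, measured 3.24, 4.31 and 3.52 in CD34+ cells and 2.15 to 2.89 on the 9 other arrays, without overlap. Its log2 change was 1.39, 1.19 and 1.26 against remaining basal, Gata6+Itga6+ and Gata6+Itga6− cells (limma adjusted p = 0.0127, 0.0321 and 0.0155). The call against Gata6+Itga6+ cells was lost without CD34+ replicate 2 or 3, Gata6+Itga6+ replicate 1 or 2 or remaining basal replicate 2 (0.0511 to 0.114), and the call against Gata6+Itga6− cells without Gata6+Itga6− replicate 1 (0.0647). With its brightest probe set Pcbp3 was not called and turned direction against remaining basal and Gata6+Itga6− cells (−0.23 and −0.14). Slc19a1, a folate transporter gene, was not called (2.87 in CD34+ cells against 2.48 to 2.74). Of the genes next to this stretch, Adarb1, an RNA-editing enzyme gene, was called against the Gata6+ populations (limma adjusted p = 0.0117 and 0.00164) and not against remaining basal cells (0.341), with neither call kept under its brightest probe set, and Lss, Spatc1l, Ftcd and Pofut2 were not called in these 3 comparisons. Col3a1 and Col5a2 are neighbours on chromosome 1, and of that pair only Col5a2 was called. These genes were looked at after their values were seen.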
